A study of Mus musculus with 16 samples.

Results

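The 8 genes described here are a chosen set of markers and regulators linked to alternatively activated macrophages. Mrc1, Cd163 and Trem2 encode surface receptors, Klf4 and Pparg encode transcription factors, and Arg1, Retnla and Chil3 encode a metabolic enzyme and secreted proteins. The genes of this set are 8 of the 21911 protein-coding gene names in the annotation and were taken by name. Their chromatin was described by every H3K27ac peak with an edge within 50 kb of any annotated start site, which gave 224 of the 171291 peaks in 4 peak lists. When overlapping peaks of the 4 lists were joined, these peaks fell into 72 of 55218 regions.

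H3K27ac, acetylation of lysine 27 of histone H3, marks active promoters and active enhancers and is absent from silent ones. In macrophages, IL-4 and IL-13 signal through STAT6 to raise several of these genes as part of a programme of tissue repair and lipid handling, whereas IFNγ drives the opposed, microbicidal programme. PARP-1 is a nuclear enzyme that attaches ADP-ribose to proteins, and PJ34 is a small-molecule inhibitor of PARP enzymes.

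The peaks came from ChIP-seq of primary bone marrow derived macrophages (BMDMs), grown from C57Bl6 mice of 8 to 12 weeks in medium conditioned by L-929 cells. No IL-4 or IL-13 was given in any group, so the lists describe the basal mark at these genes and not its response to alternative activation. Control cells were untreated, IFNγ cells received 100 ng/mL IFNγ for 1 h, PJ34 cells received 20 µM PJ34 for a time that the labels do not state, and IFNγ+PJ34 cells received 20 µM PJ34 1 h before the same IFNγ treatment. Each condition had 2 ChIP replicates and matched input DNA, 16 samples in all.

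Each condition was deposited as 1 list of peaks found in both replicates, so replicate error could not be measured, and a difference between lists is a difference between combined pairs of replicates. The lists held 43533 peaks for Control, 40708 for IFNγ, 44090 for PJ34 and 42960 for IFNγ+PJ34, covering between 42.5 and 52.6 Mb. Read depth cannot be recovered from them. Scores of different lists are on different scales, so each peak was placed by its score percentile, which runs from near 0 for the weakest to near 100 for the strongest peak of its own list, and fold enrichment and width are given beside it. The labelled cell type was matched by its markers: 9 of 9 macrophage genes had a promoter peak (a peak within 1 kb of a start site) in all 4 lists, against 0 of 5 T cell, 0 of 5 neutrophil, 0 of 4 mast cell and eosinophil, 0 of 5 fibroblast, 1 of 4 B cell and 2 of 3 dendritic cell genes.

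The sequences below were chosen after their values were seen, as sites where the lists differed widely or as promoters with no peak in any list. Bases are written 5′ to 3′ in the direction of the gene, and capitals mark matches, on either strand, to 7 motifs searched: GAS (TTCNNNGAA, the gamma-activated sequence), a STAT6-type element (TTC and GAA separated by 4 bases), PU.1-type (GAGGAAGT), AP-1 (TGANTCA), C/EBP (TTGCNNAA), KLF-type (CCACACCC) and the PPAR DR1 element. The 4 summit windows of 300 bases are Arg1 at chr10:24929897-24930196 (minus strand), Mrc1 at chr2:14261819-14262118, Pparg at chr6:115343920-115344219 and Retnla at chr16:48831138-48831437 (plus strand), in mm10. The 4 promoters, which end at the base before the start site, are Mrc1 at chr2:14229164-14229391, Trem2 at chr17:48346151-48346400 and Retnla at chr16:48842359-48842550 (plus strand) and Chil3 at chr3:106167565-106167814 (minus strand), from RefSeq on GRCm38.p6, which is the same assembly as mm10.
Arg1 upstream: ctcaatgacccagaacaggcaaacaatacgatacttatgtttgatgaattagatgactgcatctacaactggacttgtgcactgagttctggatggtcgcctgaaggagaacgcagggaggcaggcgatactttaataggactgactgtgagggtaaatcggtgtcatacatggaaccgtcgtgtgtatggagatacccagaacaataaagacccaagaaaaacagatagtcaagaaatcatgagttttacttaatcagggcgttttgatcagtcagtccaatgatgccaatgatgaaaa
Mrc1 intronic: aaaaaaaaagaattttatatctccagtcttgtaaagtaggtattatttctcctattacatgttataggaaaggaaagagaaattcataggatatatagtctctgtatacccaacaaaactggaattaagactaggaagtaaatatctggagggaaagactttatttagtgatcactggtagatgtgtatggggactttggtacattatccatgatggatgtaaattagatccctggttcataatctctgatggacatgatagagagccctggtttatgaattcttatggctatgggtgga
Pparg upstream: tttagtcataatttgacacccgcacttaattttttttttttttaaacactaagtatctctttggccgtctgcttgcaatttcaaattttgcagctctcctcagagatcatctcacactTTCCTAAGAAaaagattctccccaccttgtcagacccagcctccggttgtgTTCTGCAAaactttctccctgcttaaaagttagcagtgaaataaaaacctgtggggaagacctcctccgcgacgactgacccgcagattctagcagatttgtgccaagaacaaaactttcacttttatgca
Retnla upstream: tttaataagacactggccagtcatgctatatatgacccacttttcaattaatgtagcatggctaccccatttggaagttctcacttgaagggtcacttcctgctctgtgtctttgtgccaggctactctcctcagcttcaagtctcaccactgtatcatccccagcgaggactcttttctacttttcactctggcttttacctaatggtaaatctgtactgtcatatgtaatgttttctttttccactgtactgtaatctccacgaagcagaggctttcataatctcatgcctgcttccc
Mrc1 promoter: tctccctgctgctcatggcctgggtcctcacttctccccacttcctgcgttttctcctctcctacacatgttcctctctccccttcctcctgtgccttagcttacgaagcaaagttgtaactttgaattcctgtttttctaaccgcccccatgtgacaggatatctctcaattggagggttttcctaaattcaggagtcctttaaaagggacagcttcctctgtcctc
Trem2 promoter: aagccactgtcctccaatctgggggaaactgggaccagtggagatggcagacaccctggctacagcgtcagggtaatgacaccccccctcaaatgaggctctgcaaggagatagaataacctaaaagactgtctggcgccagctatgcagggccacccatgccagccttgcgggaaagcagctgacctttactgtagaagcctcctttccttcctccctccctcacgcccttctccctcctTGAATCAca
Retnla promoter: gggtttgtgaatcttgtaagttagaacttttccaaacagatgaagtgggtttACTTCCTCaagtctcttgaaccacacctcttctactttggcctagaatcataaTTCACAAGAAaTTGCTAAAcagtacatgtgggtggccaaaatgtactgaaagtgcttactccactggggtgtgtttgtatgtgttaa
Chil3 promoter: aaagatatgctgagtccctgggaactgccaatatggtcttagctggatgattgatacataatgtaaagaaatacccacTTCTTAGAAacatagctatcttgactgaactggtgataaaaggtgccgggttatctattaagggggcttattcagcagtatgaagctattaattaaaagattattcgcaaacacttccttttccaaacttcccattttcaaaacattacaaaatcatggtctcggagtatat

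The Retnla promoter window held a PU.1-type, a STAT6-type and a C/EBP match, the STAT6-type and C/EBP matches starting at bases 106 and 117 of the window. STAT6 and C/EBP sites in this promoter are known for their part in its induction by IL-4. In RefSeq promoters of 250 bases as a whole, 2.44% held a PU.1-type, 5.85% a STAT6-type and 9.57% a C/EBP match. The Chil3 promoter window held a GAS match, found in 7.01% of promoters, and the Trem2 window an AP-1 match, found in 6.75%. The Pparg window held a STAT6-type and a C/EBP match, and the Arg1, Mrc1 and Retnla summit windows held none of the 7 motifs. Across all 72 regions, 7 summit windows of 300 bases held a GAS match (9.72%, 8.85% of all regions), 8 an AP-1 match (11.1%, 8.02% of all), 5 a C/EBP match (6.94%, 10.7% of all), 2 a STAT6-type match (2.78%, 7.75% of all), 2 a PU.1-type match (2.78%, 2.19% of all), 2 a KLF-type match (2.78%, 2.51% of all) and 0 a DR1 element (0.058% of all). With 72 regions, the exact binomial 95% interval of the STAT6-type share ran from 0.338% to 9.68%, which holds the share of all regions.

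The mark around these genes was most extensive in Control and in IFNγ+PJ34 cells. The 8 genes together held 64 peaks in Control, 43 with IFNγ, 49 with PJ34 and 68 with IFNγ+PJ34. The length under these peaks was 68.7 kb in Control, 38.0 kb with IFNγ, 40.1 kb with PJ34 and 77.5 kb with IFNγ+PJ34. The members' covered length in IFNγ was thus 0.552 times that in Control, where the whole list's ratio was 0.808, and in PJ34 it was 0.583 times that in Control, against 0.910 for the whole list. In IFNγ+PJ34 it was 2.04 times that in IFNγ (1.04 for the whole list) and 1.93 times that in PJ34 (0.921 for the whole list). Mrc1 alone held 33862 bp of the length in IFNγ+PJ34, against 21019 bp in Control, 8599 bp with IFNγ and 9522 bp with PJ34. Without Mrc1, the length in IFNγ+PJ34 was below that in Control. It was still above that of both single treatments, but by smaller ratios. The members' peaks had a median fold enrichment of 6.80 in Control, 5.24 with IFNγ, 4.67 with PJ34 and 6.04 with IFNγ+PJ34, close to that of all peaks of each list (6.12, 5.51, 5.26 and 6.32). The mark was unevenly spread over the genes: Mrc1 and Pparg held 19 regions each, Trem2 17, Cd163 5, Arg1, Klf4 and Retnla 4 each, and Chil3 0. Pparg, with 3 annotated start sites, had a window of 161116 bp, while those of the other 7 genes were between 100001 and 100088 bp.

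**Figure D1:**
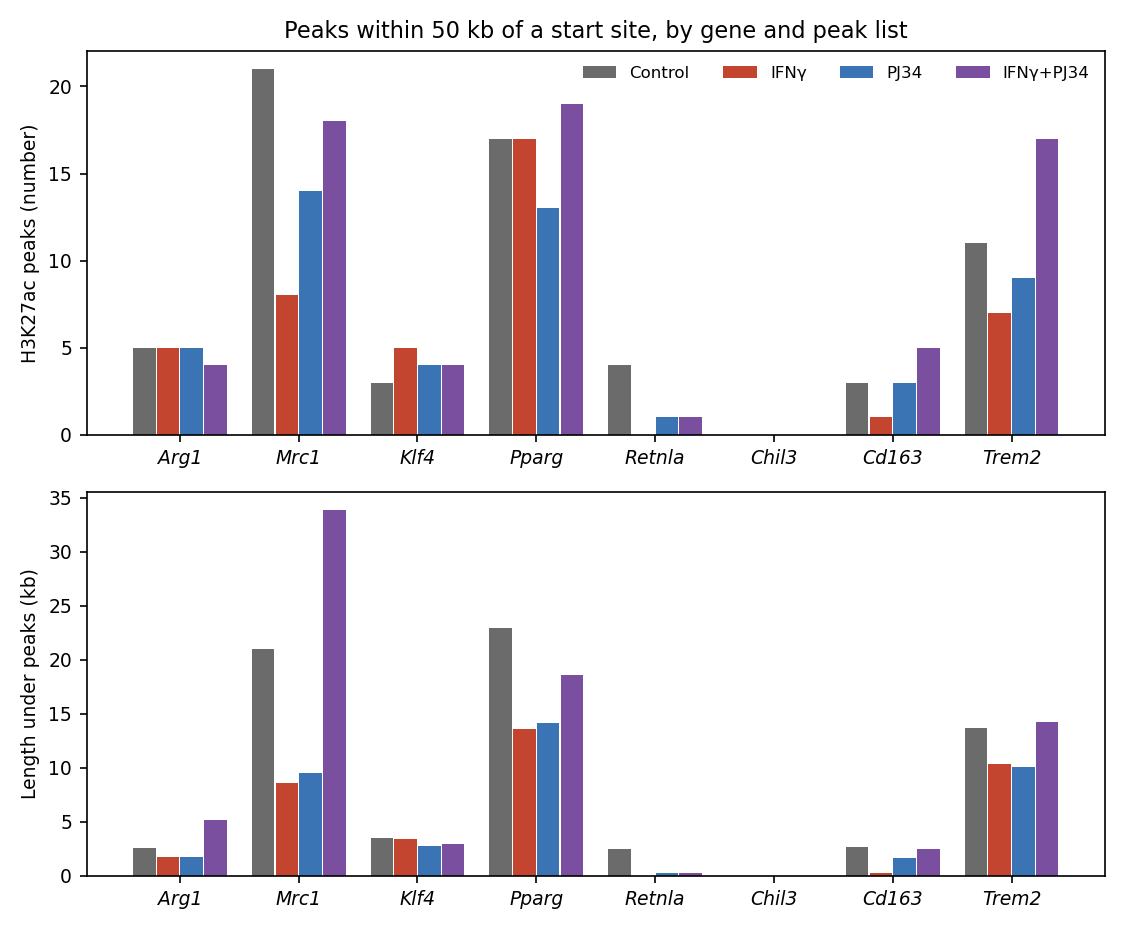
Number of H3K27ac peaks (upper panel) and length under them in kb (lower panel) within 50 kb of a start site of each gene, with 1 bar per peak list. Mrc1 fell from 21 peaks in Control to 8 in IFNγ and stood at 18 in IFNγ+PJ34, Retnla had peaks mainly in Control, and Chil3 had none.

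Of the 72 regions, 25 were found in all 4 lists, or 34.7% (exact binomial 95% interval 23.9 to 46.9%), against 38.9% of all regions. The most frequent of the other patterns was a region found in IFNγ+PJ34 alone, with 19 regions or 26.4%, where the share of all regions was 10.4%. These 19 lay at Trem2 (8), Mrc1 (6), Pparg (2), Cd163 (2) and Arg1 (1). Most were weak peaks. Only Mrc1 at -25.4 kb (percentile 70.5) and Trem2 at 36.2 and 36.8 kb (67.8 and 58.4) were above percentile 50. The lowest was at 3.47. A further 7 regions (9.72%, 2.89% of all) were missing from IFNγ alone, 7 (9.72%, 11.8% of all) were in Control alone, and 4 (5.56%, 3.64% of all), all at Mrc1, were in Control and IFNγ+PJ34 but in neither single treatment. The highest score percentile of a region fell to IFNγ+PJ34 in 42 of 72 regions (58.3%, against 26.4% of all regions), to Control in 20 (27.8%, 30.5% of all), to PJ34 in 7 (9.72%, 29.4% of all) and to IFNγ in 3 (4.17%, 13.8% of all). Of the 42, 18 were at Mrc1, 11 at Trem2, 7 at Pparg, 3 each at Arg1 and Cd163 and 0 at Klf4 and Retnla. Of the 20 highest in Control, 8 were at Pparg, 4 each at Retnla and Trem2 and 0 at Mrc1. A region found in 1 list alone is highest in that list by definition. Among the 25 regions in all 4 lists, IFNγ+PJ34 was highest in 12 (48.0%, 24.7% of all such regions) and Control in 8 (32.0%, 29.0%). PJ34 was highest in 4 (16.0%, 32.2%) and IFNγ in 1 (4.00%, 14.2%). Mrc1 held 4 of the 12 regions highest in IFNγ+PJ34 and 0 of the 8 highest in Control. By the summit of their strongest peak, 36 of the 72 regions lay in introns, 28 between genes, 6 within 1 kb of a start site and 2 in coding exons. All 6 at a start site were in all 4 lists, against 8 of the 36 intronic and 10 of the 28 intergenic regions.

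IFNγ against Control asks what the cytokine did within 1 h. Around these genes peaks were lost rather than gained: 25 of 64 Control peaks (39.1%, interval 27.1 to 52.1%) had no overlapping IFNγ peak, against 31.7% of all Control peaks, and 3 of 43 IFNγ peaks (6.98%, 1.46 to 19.1%) had no Control peak, against 16.8% of all IFNγ peaks. The background share of lost peaks lies inside the members' interval. Of the 25 lost peaks, 12 were at Mrc1, 4 at Retnla, 3 each at Pparg and Trem2, 2 at Cd163, 1 at Arg1 and 0 at Klf4. The 3 IFNγ peaks without a Control peak were 2 at Pparg and 1 at Klf4. In the 30 regions present in both lists, the median difference in score percentile was -10.4 points (order-statistic 95% interval -14.3 to -3.62), and that of all shared regions was -2.31. At least 10 points were lost in 15 of 30 (50.0%, 28.7% of all regions) and gained in 4 (13.3%, 14.9% of all). Covered length was lower in IFNγ by at least 1.5 times at Mrc1, Pparg and Cd163, 3 of the 6 genes with peaks in both lists (22.0% of all such genes), and higher at 0 of 6 (3.61%).

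PJ34 against Control asks what the inhibitor did alone. Of the 64 Control peaks, 23 (35.9%, 24.3 to 48.9%) had no PJ34 peak, against 25.1% of all, and 3 of 49 PJ34 peaks (6.12%, 1.28 to 16.9%) had no Control peak, against 19.5% of all. The background share of missing Control peaks lies inside the members' interval, and without Mrc1 the share was 12 of 43 (27.9%, 15.3 to 43.7%). The missing Control peaks were 11 at Mrc1, 5 at Pparg, 3 each at Retnla and Trem2 and 1 at Klf4. In 33 shared regions the median difference was -4.48 points (-12.6 to -1.98), and that of all shared regions was 0.31. Without Mrc1 the median was -3.15 points over 26 regions (-12.3 to 2.30), an interval that includes 0. At least 10 points were lost in 14 of 33 (42.4%, 20.1% of all) and gained in 4 (12.1%, 18.5% of all). Covered length was lower by at least 1.5 times at Mrc1, Pparg, Retnla and Cd163, 4 of 7 genes (12.1% of all), and higher at 0 of 7 (3.38%).

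IFNγ+PJ34 against IFNγ asks what the inhibitor changed in cells that received the cytokine. Here peaks were gained: 32 of 68 IFNγ+PJ34 peaks (47.1%, 34.8 to 59.6%) had no IFNγ peak, against 27.2% of all, while 3 of 43 IFNγ peaks (6.98%, 1.46 to 19.1%) had no IFNγ+PJ34 peak, against 24.1% of all. Without Mrc1 the first share was 19 of 50 (38.0%, 24.7 to 52.8%), an interval that holds the background share. Of the 32 gained peaks, 13 were at Mrc1, 8 at Trem2, 5 at Pparg, 4 at Cd163 and 1 each at Arg1 and Retnla. In 30 shared regions the median difference was 11.7 points (0.237 to 23.0), and that of all shared regions, 0.26, lies inside this interval. Without Mrc1 the median was 9.32 points over 25 regions (-2.44 to 17.0), an interval that includes 0. At least 10 points were gained in 16 of 30 (53.3%, 26.1% of all) and lost in 5 (16.7%, 21.4% of all). Covered length was higher by at least 1.5 times at Arg1, Mrc1 and Cd163, 3 of 6 genes (10.6% of all), and lower at 0 of 6 (9.62%).

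IFNγ+PJ34 against PJ34 asks what the cytokine did in inhibited cells. Of 68 IFNγ+PJ34 peaks, 29 (42.6%, 30.7 to 55.2%) had no PJ34 peak, against 25.7% of all, and 3 of 49 PJ34 peaks (6.12%, 1.28 to 16.9%) had no IFNγ+PJ34 peak, against 31.6% of all. Without Mrc1 the first share was 18 of 50 (36.0%, 22.9 to 50.8%), an interval that holds the background share. At least 10 points were gained in 16 of 33 shared regions (48.5%, 22.1% of all) and lost in 5 (15.2%, 30.9% of all). Without Mrc1, that much was gained in 9 of 26 and lost in 5. The median difference was 9.81 points (-1.98 to 17.5), and that of all shared regions was -2.61. This median rested on Mrc1, whose 7 shared regions were all at least 23.7 points higher, and without that gene it was 0.93 points over 26 regions. Covered length was higher by at least 1.5 times at Arg1, Mrc1 and Cd163, 3 of 7 genes (9.76% of all), and lower at 0 of 7 (17.8%).

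**Figure D2:**
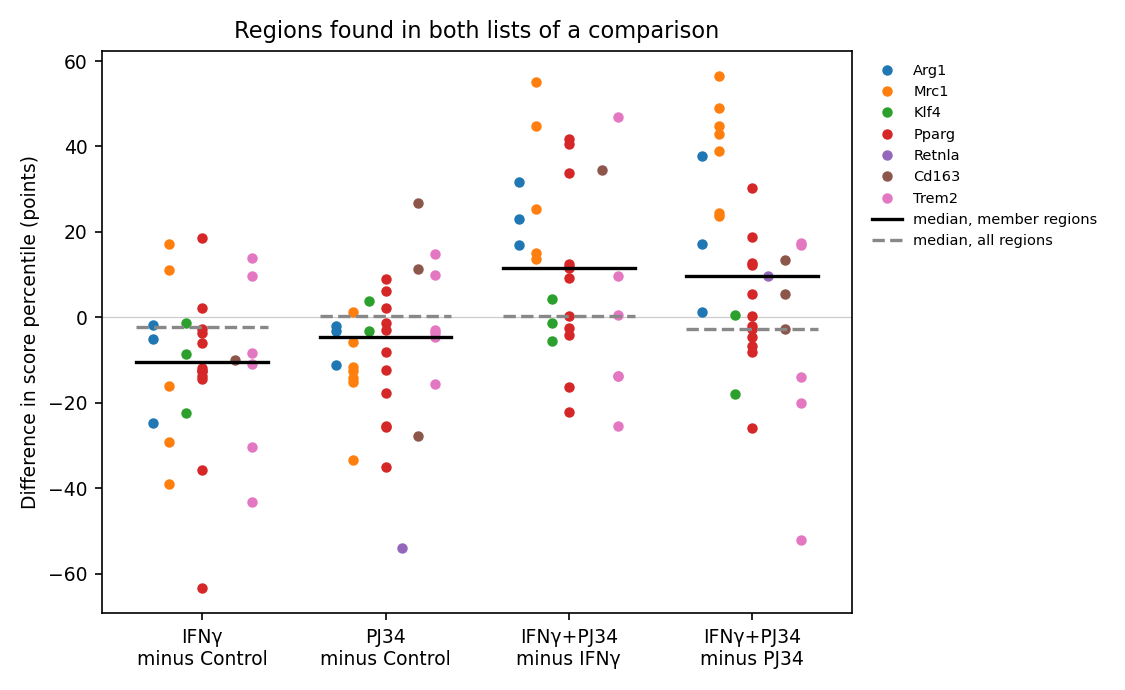
Difference in score percentile, in points, for every member region present in both lists of a comparison, with 1 point per region coloured by gene, the median of the member regions (solid line) and the median of all shared regions (dashed line). The Mrc1 points lie above 0 in both comparisons of IFNγ+PJ34, and the Trem2 and Pparg points lie on both sides of 0 in all 4 comparisons.

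Mrc1 encodes the mannose receptor CD206, an endocytic lectin and the most widely used surface marker of alternative activation. The gene runs from 14229392 to 14332057 on the plus strand of mm10 chromosome 2. Its locus held 21 peaks in Control, 8 with IFNγ, 14 with PJ34 and 18 with IFNγ+PJ34, with 21019, 8599, 9522 and 33862 bp under them and a mean fold enrichment of 6.14, 7.53, 4.69 and 13.1. In 18 of its 19 regions the highest score percentile was in IFNγ+PJ34, and 6 of these were found in that list alone. The promoter peak was at percentile 78.9 in Control, 62.9 with IFNγ, 63.8 with PJ34 and 88.2 with IFNγ+PJ34, with a fold enrichment of 16.4, 7.01, 7.08 and 27.9. Both single treatments thus stood below Control, and the combination above it.

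The Mrc1 locus did not move as a block under IFNγ. Downstream of the promoter, inside the gene, 12 regions were found, of which 7 were present in Control, 1 with IFNγ, 5 with PJ34 and 11 with IFNγ+PJ34, and the length under peaks there was 8.17, 0.26, 2.81 and 11.6 kb. The intronic region at 20.0 kb was at percentile 75.9 in Control, 46.7 with IFNγ, 42.5 with PJ34 and 91.6 with IFNγ+PJ34. The intronic region at 31.6 kb, whose summit sequence is printed above, was at percentile 62.7 in Control and 93.4 in IFNγ+PJ34, with fold enrichment of 7.99 and 30.6, and had no peak in IFNγ or in PJ34. Upstream, in introns of the neighbouring gene Tmem236, the pattern was different: the region at -35.4 kb was at percentile 63.3 in Control, 80.5 with IFNγ, 50.8 with PJ34 and 95.5 with IFNγ+PJ34, and the region at -20.3 kb at 69.0, 80.2, 70.3 and 93.9. These 2 regions were thus higher in IFNγ than in Control, by 17.2 and 11.2 points, whereas the promoter and the region at 20.0 kb were lower by more than 10 points. The region at -41.2 kb went the other way, from percentile 63.3 in Control to 24.3 in IFNγ, with no peak in PJ34 and 79.4 in IFNγ+PJ34. The region at -25.4 kb, 2645 bp wide and at percentile 70.5, was found in IFNγ+PJ34 alone. Together the 6 upstream regions held 9.08 kb of peaks in Control, 5.79 with IFNγ, 2.94 with PJ34 and 17.8 with IFNγ+PJ34. All lie in introns of Tmem236, and the furthest are nearer to its start site, so these peaks cannot be assigned to Mrc1 alone.

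**Figure D3:**
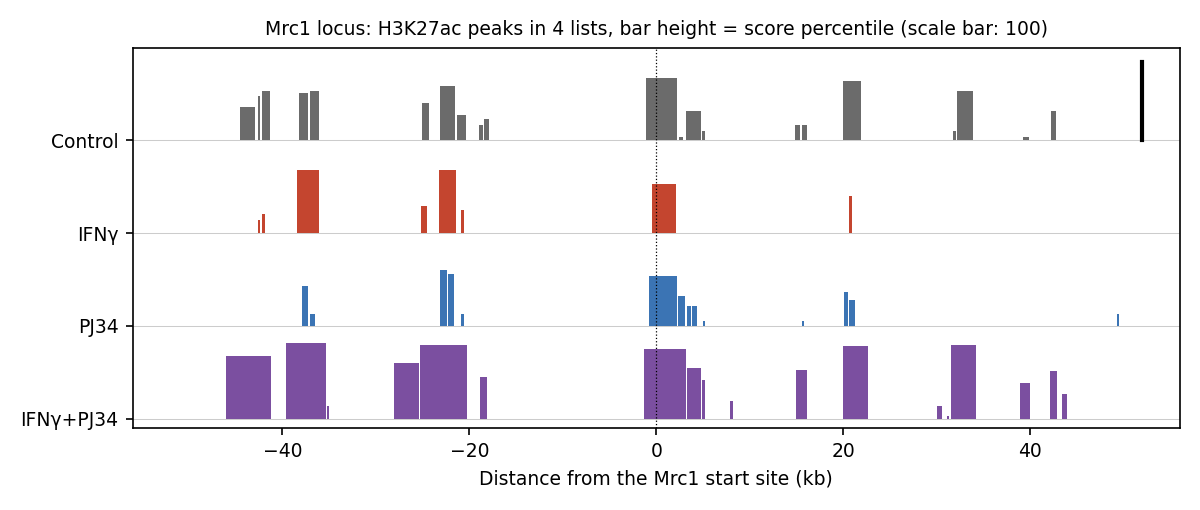
H3K27ac peaks of the 4 lists along the Mrc1 locus, by distance from the Mrc1 start site in kb, drawn to scale in width, with bar height giving the score percentile (the black bar is 100). The gene lies to the right of 0, where IFNγ has 1 region beyond the promoter and IFNγ+PJ34 has 11.

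Cd163 encodes the scavenger receptor for haemoglobin and haptoglobin complexes, a marker of resident tissue macrophages. The gene runs from 124304656 to 124330527 on the plus strand of chromosome 6 and had no promoter peak in any list. Its locus held 3 peaks in Control, 1 with IFNγ, 3 with PJ34 and 5 with IFNγ+PJ34, with 2.67, 0.254, 1.65 and 2.48 kb under them. The strongest was an intronic region at 15.4 kb, at percentile 60.6 in Control, 32.8 in PJ34 and 38.4 in IFNγ+PJ34, with no peak in IFNγ. The region at -30.5 kb was in all 4 lists, at percentile 26.9 in Control, 17.0 with IFNγ, 38.2 with PJ34 and 51.6 with IFNγ+PJ34. All of these are modest peaks, and those found in IFNγ+PJ34 alone, at -21.5 and -7.24 kb, were at percentiles 8.96 and 15.6.

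Trem2 encodes a lipid-sensing receptor of the immunoglobulin superfamily that signals through the adaptor DAP12. It occupies 48346401 to 48352273 on the plus strand of chromosome 17, in a cluster with Treml1 and Treml2. Its promoter peak was the strongest of the 8 genes in Control and in IFNγ+PJ34, at percentile 95.7 in Control, 87.5 with IFNγ, 80.1 with PJ34 and 97.2 with IFNγ+PJ34. By fold enrichment Control was highest, with 55.2, followed by IFNγ+PJ34 with 30.9, IFNγ with 24.0 and PJ34 with 15.3. IFNγ+PJ34 stood above both single treatments on either scale but above Control only by percentile. The peak was 4264, 3393, 2984 and 4376 bp wide.

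The Trem2 locus held 11 peaks in Control, 7 with IFNγ, 9 with PJ34 and 17 with IFNγ+PJ34, but only 13.7, 10.4, 10.1 and 14.3 kb under them. Not every region followed the promoter. The intergenic region at 7.35 kb was lowest in the combination, at percentile 88.8 in Control, 77.9 with IFNγ, 84.3 with PJ34 and 64.3 with IFNγ+PJ34. Its summit lies nearer to the start site of Treml1 than to that of Trem2. So was a region in a coding exon of B430306N03Rik at -21.9 kb, at percentile 64.6 in Control, 34.3 with IFNγ, 60.9 with PJ34 and 8.96 with IFNγ+PJ34. The region at -3.74 kb was at 53.6 in Control, 10.4 in IFNγ and 57.4 in IFNγ+PJ34, with no peak in PJ34. A group of 4 regions between 34.7 and 36.8 kb, nearer to the start site of Nfya than to that of Trem2, was found in IFNγ+PJ34 alone, at percentiles from 27.04 to 67.8. Within the window the promoter of Treml2 was at 66.8 in Control, 80.7 with IFNγ, 63.8 with PJ34 and 81.3 with IFNγ+PJ34, that of B430306N03Rik at 68.2, 77.9, 78.2 and 64.3, and Treml1 had no promoter peak.

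Klf4 encodes a zinc-finger factor that acts with STAT6 in alternative activation. It occupies 55527143 to 55532466 on the minus strand of chromosome 4. By percentile it differed least of the genes with a promoter peak in all 4 lists, at 91.2 in Control, 89.9 with IFNγ, 88.0 with PJ34 and 88.6 with IFNγ+PJ34, a range of under 4 points. Its fold enrichment was 39.0, 29.1, 27.01 and 24.0, and the width of this strongest peak 2611, 1419, 1156 and 927 bp, both highest in Control. The region around it was 1 peak in Control but 2 with IFNγ, 3 with PJ34 and 2 with IFNγ+PJ34. The length under all its peaks differed less, at 2611, 2337, 2327 and 2224 bp. The locus held 3 peaks in Control, 5 with IFNγ, 4 with PJ34 and 4 with IFNγ+PJ34. An intergenic region at 17.2 kb was at percentile 71.5 in Control, 62.9 with IFNγ, 75.4 with PJ34 and 57.4 with IFNγ+PJ34, and a region at -8.81 kb was found in IFNγ alone, at percentile 46.7.

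Pparg encodes the lipid-activated nuclear receptor PPARγ, which supports the oxidative metabolism of alternatively activated macrophages. The gene runs from 115360951 to 115490399 on the plus strand of chromosome 6. Its promoter peak, over the most upstream of its start sites, was also steady, at percentile 86.1 in Control, 82.5 with IFNγ, 84.7 with PJ34 and 82.7 with IFNγ+PJ34, with a fold enrichment of 26.6, 17.9, 20.7 and 18.2. The locus held 17 peaks in Control, 17 with IFNγ, 13 with PJ34 and 19 with IFNγ+PJ34, with 22.9, 13.6, 14.1 and 18.5 kb under them.

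The distal regions of Pparg differed more than its promoter. The region at -15.9 kb, whose summit sequence is printed above, was at percentile 84.3 in Control, 48.7 with IFNγ, 58.9 with PJ34 and 89.3 with IFNγ+PJ34, and its fold enrichment was 22.1, 5.49, 6.96 and 27.7. The region at 46.9 kb from the nearest start site, in an intron, was at 53.6 in Control, 41.2 in IFNγ and 82.9 in IFNγ+PJ34, with no peak in PJ34. In contrast, the region at -43.0 kb was at 81.2 in Control, 69.3 with IFNγ, 73.2 with PJ34 and 47.3 with IFNγ+PJ34, and that at -25.6 kb fell from 67.7 in Control to 4.54 with IFNγ, 32.8 with PJ34 and 38.4 with IFNγ+PJ34. The intronic region at 11.4 kb stayed between 78.5 and 86.5 in the 4 lists. The locus thus held regions that were highest in the combination and others that were lowest there.

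Arg1 encodes arginase 1, which turns arginine into ornithine and so competes with nitric oxide synthesis. It occupies 24915221 to 24927484 on the minus strand of chromosome 10. The region that reaches its start site was in all 4 lists, but it was made of 3 short peaks in Control, 3 in IFNγ and 3 in PJ34 and of a single peak of 3919 bp in IFNγ+PJ34. The strongest peak of the region was at percentile 53.6 in Control, 48.7 with IFNγ, 42.5 with PJ34 and 80.3 with IFNγ+PJ34, with a fold enrichment of 6.25, 5.28, 4.67 and 16.5. Within 1 kb of the start site there was a peak in Control (percentile 50.7, summit at -807 bp) and PJ34 (42.5, summit at -810 bp) and none in IFNγ. The IFNγ+PJ34 peak covers the start site, but its summit lies at -2562 bp, the site printed above. A pair of regions downstream of the gene, in an intron of Med23, was in all 4 lists. That at 16.1 kb was at percentile 49.1 in Control, 24.3 with IFNγ, 46.0 with PJ34 and 47.3 with IFNγ+PJ34, and that at 15.4 kb at 40.2, 38.4, 38.2 and 55.4.

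**Figure D4:**
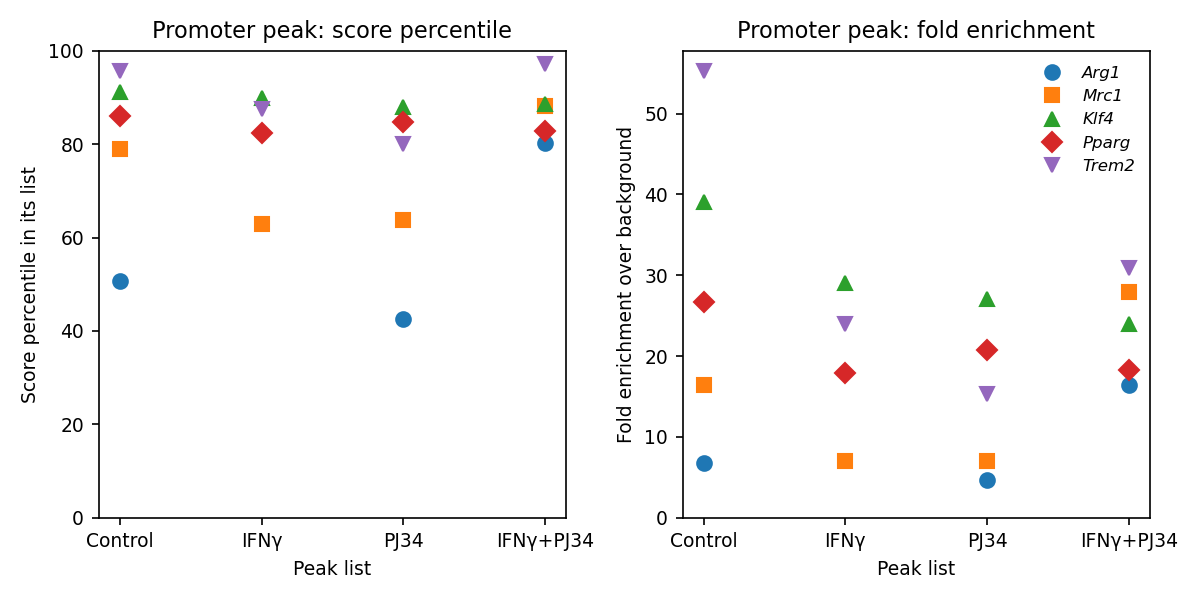
Score percentile (left) and fold enrichment (right) of the strongest peak within 1 kb of a start site, by peak list, for the 5 genes with such a peak. Klf4 and Pparg keep nearly the same percentile, Mrc1 and Trem2 are lower in IFNγ and PJ34 than in the other lists, and Arg1 has no point in IFNγ.

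**Figure D5:**
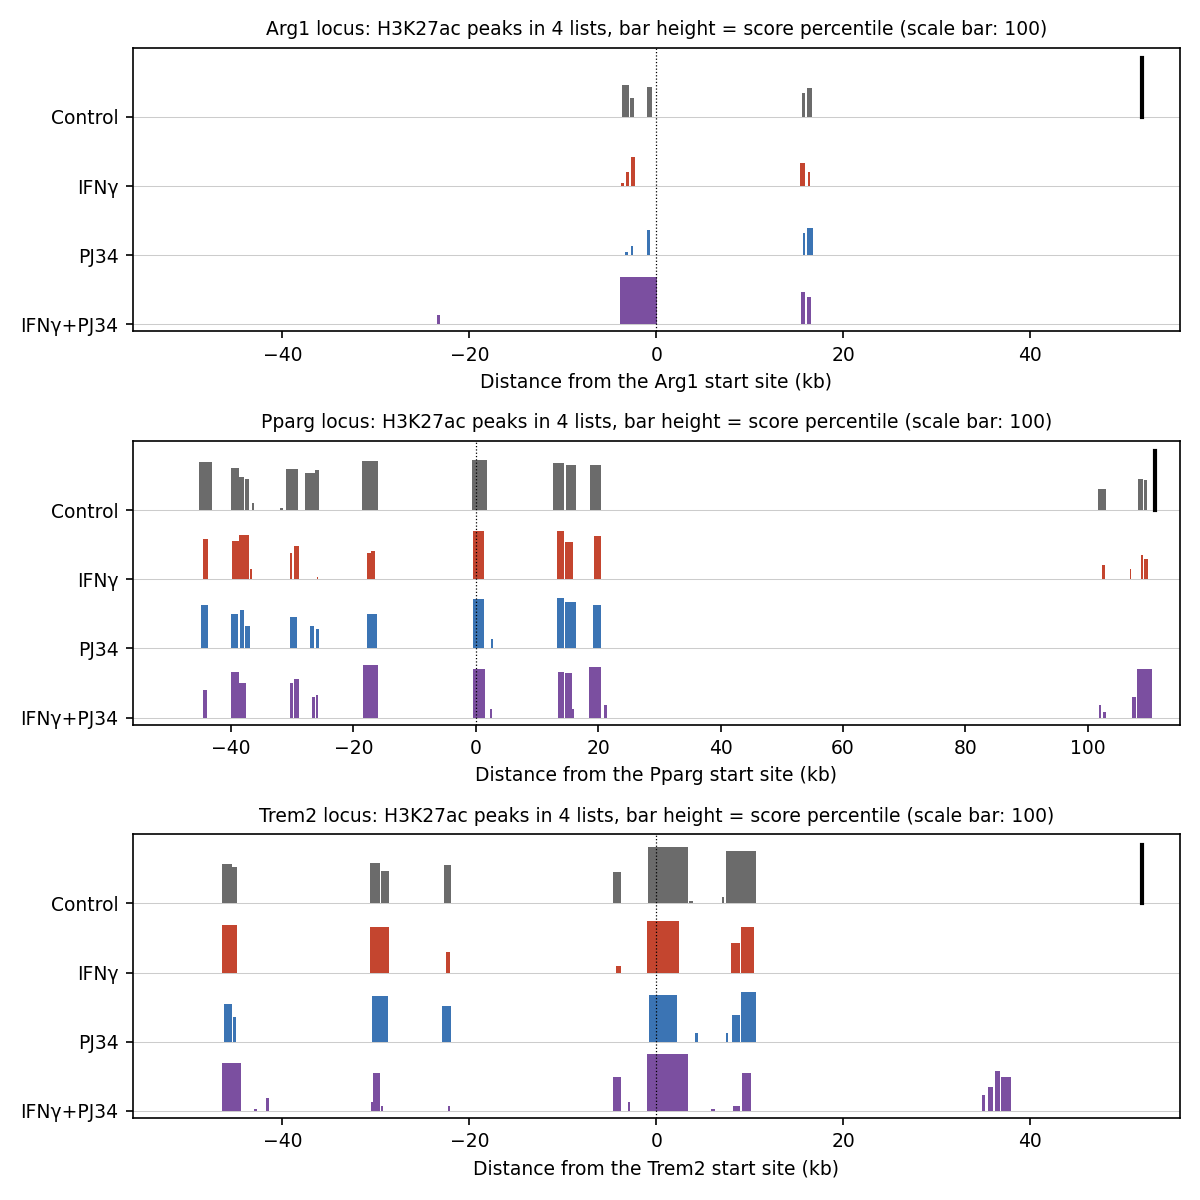
H3K27ac peaks of the 4 lists along the Arg1, Pparg and Trem2 loci, by distance from the start site in kb (for Pparg, the most upstream of 3), with bar height giving the score percentile (the black bar is 100). The Arg1 region at the start site is 1 wide peak in IFNγ+PJ34, and the group of Trem2 regions beyond 34.7 kb appears in IFNγ+PJ34 alone.

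Retnla encodes RELMα, also known as FIZZ1, a secreted protein induced by IL-4. The gene runs from 48842551 to 48844461 on the plus strand of chromosome 16 and had no promoter peak in any list. It was marked mainly in Control, where 4 regions between -14.3 and -10.3 kb held 2.46 kb of peaks. The strongest, at -11.0 kb, was at percentile 59.7 in Control, 5.78 in PJ34 and 15.6 in IFNγ+PJ34, with a fold enrichment of 7.51, 2.51 and 3.29, and had no peak in IFNγ. The other 3 were at 26.9, 11.5 and 40.2 in Control and in no other list. The furthest 2 of the 4 regions lie nearer to the start site of the paralogue Retnlb, so the peaks cannot be assigned to Retnla alone.

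Chil3 encodes the chitinase-like protein Ym1, a secreted protein of alternatively activated mouse macrophages. It occupies 106147554 to 106167564 on the minus strand of chromosome 3. No list held a peak within 50 kb of its start site, as was the case for 26.0% of protein-coding genes. With Retnla and Cd163 it was 1 of 3 members without a promoter peak in any list. The 4 with one in all lists were Mrc1, Klf4, Pparg and Trem2, or 4 of 8, against 47.8% of protein-coding genes.

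The genes whose promoter percentiles in the 4 lists lay nearest to those of each member were, by the largest difference over the 4 lists, Gng11 (10.4 points) for Arg1, Wee1 (4.83 points) for Mrc1, H2afz (1.30 points) for Klf4, Hras (1.10 points) for Pparg and Ptpn22 (1.84 points) for Trem2. A missing peak was given percentile 0. The next genes were Rragd, Mrpl42, Atp5a1, Lrrc56 and Cst3, in the same order, of which Lrrc56 shares its promoter peak with Hras.

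Genes that carry the IL-4 and IL-13 signal were already marked in untreated cells. Of 19 such genes, 18 had a promoter peak in all 4 lists, with Kdm6b the exception, against 47.8% of protein-coding genes. Il4ra, the receptor chain shared by both cytokines, was at percentile 98.2 in Control, 99.0 with IFNγ, 97.3 with PJ34 and 99.1 with IFNγ+PJ34, and Stat6 at 97.3, 91.7, 96.8 and 95.6. Between IFNγ and Control, 2 of the 18 promoters were at least 10 points higher and 1 lower, and between IFNγ+PJ34 and IFNγ 1 was higher and 2 were lower. Of all promoters with a peak in both lists, 3.67% were higher and 14.6% lower in IFNγ than in Control, and 9.84% were higher and 15.0% lower in IFNγ+PJ34 than in IFNγ. The higher promoters in IFNγ were Il13ra1, a receptor chain, at 36.8 in Control and 62.1 in IFNγ, and Cish, a feedback inhibitor of cytokine signalling, at 62.7 and 82.3. The lower was Rxra, the partner of PPARγ on DNA, at 70.9 and 59.3.

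Other products of alternative activation resembled the 8 genes only in part. Of 19 matched, 8 had a promoter peak in all 4 lists, against 47.8% of protein-coding genes, and 7 in none. The lectin genes Clec10a and Mgl2, which neighbour each other, were marked over a longer stretch in IFNγ+PJ34 than in PJ34, by 4.02 and 8.50 times. Over the list, 5 of 16 genes with peaks in both were covered by at least 1.5 times more in IFNγ+PJ34 than in PJ34 and 6 by at least 1.5 times less, with a median ratio of 0.981. Over all genes with peaks in both, these shares were 9.76% and 17.8%, with a median ratio of 0.891. The Clec10a promoter was at percentile 63.3 in Control, 50.4 with IFNγ, 38.2 with PJ34 and 82.4 with IFNγ+PJ34. Pdcd1lg2, Ccl24 and Fn1 had a promoter peak in IFNγ+PJ34 alone, at percentiles 98.7, 66.7 and 70.1. The Pdcd1lg2 locus was nevertheless marked in every list, with 25.9 kb of peaks in Control, 25.5 with IFNγ, 32.3 with PJ34 and 34.6 with IFNγ+PJ34. The Ccl24 locus held 2, 0, 2 and 6 peaks in the same order, and the Fn1 locus 0, 0, 0 and 1. In the opposite direction, the locus of the cytokine gene Il10 held 11 peaks in Control, 10 with IFNγ, 24 with PJ34 and 5 with IFNγ+PJ34. For IFNγ+PJ34 and IFNγ, 3 of 14 genes with peaks in both had at least 1.5 times the covered length in IFNγ+PJ34 as in IFNγ and 3 at most its inverse, against 3 and 0 of 6 for the members. Over all genes with peaks in both, the shares were 10.6% and 9.62%.

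For comparison, 8 of 8 macrophage lineage regulators and 6 of 8 IFNγ targets had a promoter peak in all 4 lists, against 47.8% of protein-coding genes. By the median ratio, the covered length of the IFNγ targets in IFNγ was 1.77 times that in Control, and in IFNγ+PJ34 it was 1.27 times that in IFNγ, where the members' medians were 0.641 and 2.18. Those of the lineage regulators were 0.778 and 0.886. Those of the 9 macrophage marker genes, 0.661 and 1.26, lay on the same sides of 1 as the members', with 5 of 9 lower by at least 1.5 times in IFNγ than in Control and 0 higher, and 4 of 9 higher in IFNγ+PJ34 than in IFNγ and 0 lower. Of all genes with peaks in both lists, 22.0% were lower and 3.61% higher in IFNγ than in Control. In IFNγ+PJ34 against IFNγ, 10.6% of all were higher and 9.62% lower. The promoter of Mertk, a receptor for apoptotic cells from the macrophage marker list, was at percentile 80.8 in Control, 44.0 with IFNγ, 54.8 with PJ34 and 90.8 with IFNγ+PJ34, an order like that of the Mrc1 promoter.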

How the data were processed

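H3K27ac ChIP-seq peaks of 4 conditions were used; inputs served the authors' peak calling. Per the study's methods, the authors aligned reads to mm10 with Bowtie, called peaks per replicate against input with MACS at a relaxed threshold and kept peaks overlapping in both replicates, so no replicate value remains. The deposited columns used were the peak score, fold enrichment (a ratio), -log10 p and -log10 q, and summit. Percentiles are (rank - 0.5)/n of the score in its list. Peaks were shared when they overlapped by at least 1 bp, and start sites were those of GENCODE M21 basic (GRCm38), with 7 of 8 members in the RefSeq promoter table. A move of at least 10 points or 1.5 times was called. Shares carry exact Clopper-Pearson and medians order-statistic 95% intervals, which cover the number of peaks only, and neighbouring peaks are not independent. No test between conditions was possible. Functions passed 23 of 23 checks on simulated data. Python 3.11.15, pandas 2.3.3 and scipy 1.17.1 were used. The members, gene lists and rules were chosen with earlier results of these data known. All 8 members are named, with their promoter peaks and strongest, most changed and missing regions. Alternatives were other overlaps, thresholds, windows, ranks and merging.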

Additional observations from a re-analysis of the deposited data

Results flagged for a closer look

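Values whose direction under IFNγ differed without and with PJ34 are given here. The differences were not tested, since each condition is 1 list, and no cause was examined. The number of Mrc1 peaks changed by -13 from Control to IFNγ and by 4 from PJ34 to IFNγ+PJ34, 17 apart. For Trem2 the changes were -4 and 8 peaks, 12 apart, and for Cd163 -2 and 2 peaks, 4 apart. The length under the Trem2 peaks went from 13.7 to 10.4 kb without PJ34 and from 10.1 to 14.3 kb with it. A peak count also changes when a region is split into several peaks. The promoter score percentile of Mrc1 changed by -16.0 points without PJ34 and by 24.4 points with it, 40.4 points apart. For Trem2 the changes were -8.22 and 17.0 points, 25.3 apart. For Klf4 they were -1.38 and 0.564 points, 1.94 apart, which is small beside the other genes.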

How the results depend on the processing

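No paired analysis was possible because the replicates had been combined before deposit, which also means that none could be left out. Of 98 recomputed values, 94 stayed within the 95% interval of the reported value (counts within 1.5 times), 4 moved and 0 changed sign. With at least 50% of a peak required as overlap, 56.2% of Control peaks were absent from IFNγ (39.1% as reported). In the higher-scoring 50% of each list, 0 of 19 IFNγ peaks and 0 of 20 PJ34 peaks were absent from Control, both 0%. Regions merged over gaps of up to 1 kb were in all 4 lists in 52.4% of cases (34.7% as reported). The median difference of IFNγ from Control ranged from -11.7 to -7.79 points and that of IFNγ+PJ34 from IFNγ from 5.35 to 11.7, with a 95% interval that included 0 in 7 of 10 alternatives. That of PJ34 from Control ranged from -7.46 to -3.15, with an interval that included 0 in 2 of 10 alternatives. That of IFNγ+PJ34 from PJ34 ranged from 0.933, without Mrc1, to 17.04, with an interval that included 0 in 9 of 10. IFNγ peaks absent from IFNγ+PJ34 ranged from 2.33 to 14.0% and IFNγ+PJ34 peaks absent from IFNγ from 35.3 to 58.8%. Leaving out the Mrc1 locus and ranking by -log10 p were chosen after seeing the data. Without Mrc1, 38.0% of IFNγ+PJ34 peaks were absent from IFNγ and 30.2% of Control peaks from IFNγ. Read depth is unknown, so a missing peak is one not detected in that list.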
